A study of Rattus norvegicus with 32 samples.

Results

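The 8 genes that encode the subunits of the cytosolic chaperonin CCT, also called TRiC, were followed in somata and dendrites of individual rat neurons. They were taken from the rows by symbol, by a rule that uses no measured value: Tcp1, Cct2, Cct3, Cct4, Cct5, Cct6a, Cct7 and Cct8. These are 8 of 17216 deposited gene rows, each symbol was found once, and all 8 were among the 4916 genes that passed the filter on low counts and were tested. Hippocampal neurons of wildtype Sprague Dawley rats, labelled pyramidal, were taken at embryonic day 18 and kept in culture for 15 days. From each of 16 neurons the soma gave 1 library and the dendrites, aspirated with a separate micropipette, gave another, and libraries with the same number in their titles were taken as 1 cell. All 32 libraries were made from polyadenylated RNA after 3 rounds of antisense RNA amplification, and none of the cells carried a treatment or an altered gene. More than 1 culture and collection day supplied the cells; which culture or day belongs to which cell is not stated in the labels, so p-values cover the spread between these 16 cells.

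CCT is a barrel of stacked rings, each built from all 8 subunits in a fixed order. Newly made proteins enter its chamber and fold during a cycle of ATP binding and hydrolysis. Actins and tubulins are its best known obligate substrates, which makes it a supplier of the neuronal cytoskeleton. Since each ring takes every subunit once, the genes are often thought of as a set that is needed in equal amounts of protein. The counts here are of mRNA, and say nothing of the amounts of protein.

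Some libraries stood apart. Gene counts per library ran from 878125 to 24721811 in soma and from 229149 to 24439768 in dendrites, and the dendrites were the shallower library in 14 of 16 neurons. Neuron 25 had the shallowest library of each compartment. The dendrites of neuron 20 needed a scaling factor of 0.159 by the TMM method, against 0.659 to 1.76 in the other libraries, and had the highest spike-in share, 4.33% of counts. Soma and dendrites of neurons 7 and 9 matched better across the numbers than within them: the soma of neuron 7 and the dendrites of neuron 9 had a Spearman correlation of 0.259 over tested genes, against 0.0907 and 0.0699 within these neurons. For the soma of neuron 8 the best partner was again dendrites 9, at 0.231, while its own dendrites gave 0.193. Whether these numbers are right was not tested, and the members' median fold change is given with and without the 3 neurons. Neurod6, a transcription factor gene of excitatory forebrain neurons, had at least 10 counts in all 32 libraries. Slc17a7, the vesicular glutamate transporter gene of mature excitatory neurons, had them in 5 soma and 2 dendrite libraries. Gad1, a marker of inhibitory neurons, had them in 7 and 11. Among other inhibitory markers, Calb2 had them in 10 and 9, Slc32a1 in 6 and 6, Gad2 in 2 and 2, and Dlx2 in 0. In CPM, defined below, Gad1 had a median of 1.12 and a highest value of 11161 in soma. In dendrites these were 40 and 1833. The 11 inhibitory markers among the rows summed to 0 to 13314 CPM in soma (median 148) and 10.9 to 3141 in dendrites (median 328). Whether any of these cells was inhibitory was not tested.

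To show the kind of control region these genes have, the 250 bases before the annotated start are printed for Cct7 and Cct8. Of the 8 genes these had the smallest and the largest SD of TMM-scaled log2 levels in soma. The sequences are RefSeq's for build GRCr8, while the counts were made on rn6, and all 8 members were matched by symbol. Capitals mark matches to CCAAT, which reads as ATTGG on the other strand, and to GGGCGG, which reads as CCGCCC. The motifs GAANNTTC and TTCNNGAA, pairs of the units that heat shock factors bind, were searched too and would also be in capitals. The window of Cct7 is chr4:119546480-119546729 on the plus strand, and that of Cct8 is chr11:40208329-40208578 on the minus strand.
Cct7: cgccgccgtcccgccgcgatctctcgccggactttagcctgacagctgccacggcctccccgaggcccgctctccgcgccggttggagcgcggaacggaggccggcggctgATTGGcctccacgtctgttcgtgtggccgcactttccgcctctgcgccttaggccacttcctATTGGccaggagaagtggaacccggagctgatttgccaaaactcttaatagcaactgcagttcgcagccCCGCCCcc
Cct8: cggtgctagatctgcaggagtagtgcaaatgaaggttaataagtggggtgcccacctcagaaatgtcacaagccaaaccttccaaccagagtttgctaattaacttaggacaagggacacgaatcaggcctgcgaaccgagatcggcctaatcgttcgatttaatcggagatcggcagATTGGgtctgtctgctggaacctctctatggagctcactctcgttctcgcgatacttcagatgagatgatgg
Cct7 held 2 CCAAT matches and 1 GGGCGG match, and Cct8 held 1 CCAAT match. Over the 8 windows, CCAAT was found in 5 (Cct3, Cct5, Cct6a, Cct7 and Cct8), against 34% of 33469 windows of the same length, and GGGCGG in 5 (Tcp1, Cct2, Cct3, Cct6a and Cct7), against 30.5%. TTCNNGAA was found in Cct5 and Cct6a, against 7.48% of windows, and GAANNTTC in 0 of 8, against 7.23%. No window held TATAAA or its reverse TTTATA, which 12.9% of windows hold. A match of letters is a description of the window and not a shown binding site.

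Every subunit was found in both compartments of nearly every neuron. With 10 or more counts as the limit, 27 of 32 libraries held all 8 subunits, 15 of 16 in soma and 12 of 16 in dendrites. The other 5 libraries each lacked 1 subunit, so that 251 of 256 combinations of subunit and library reached the limit. Of the 5 that did not, 3 were of Tcp1, and the others were Cct3 in the dendrites of neuron 22, with 4 counts, and Cct6a in the dendrites of neuron 28, with 5. Of all 17216 gene rows, 1291 (7.5%) reached 10 counts in at least 29 of 32 libraries, as each CCT gene did. The limit of 29 was set by the least often detected member, Tcp1. In all 32 libraries 550 rows (3.19%) reached it, among them Cct2, Cct4, Cct5, Cct7 and Cct8. Most rows did not pass the filter on low counts, and 4916 did, so these shares are not shares of the tested genes. In 30 libraries thinned to 1071293 gene counts each, 21 still held all 8, and without neurons 20 and 25 it was 24 of 28 libraries at full depth. After thinning, 11 soma and 10 dendrite libraries held all 8. The paralog Cct6b, known as a testis form of the zeta subunit, and Cct8l1 had 0 counts in all 32 libraries.

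Levels are in CPM, the counts of a gene per 1000000 gene counts of its library. A sum evens out differences between its genes, so its range is in part a matter of arithmetic. The summed level of the 8 genes had a narrower range from cell to cell than any single subunit. In soma it ran from 3799 CPM in neuron 20 over a median of 5023 to 8733 in neuron 26, with a mean of 5607 ± 1499 (SD, n = 16). In dendrites it ran from 355 CPM in neuron 20 over a median of 4174 to 10999.6 in neuron 27, with a mean of 4076 ± 2449 (SD, n = 16). The compartments overlapped, with the dendrites lower than the soma of the same cell in 12 of 16 neurons and higher in neurons 9, 15, 18 and 27. Without neuron 20 the mean in dendrites was 4324 ± 2318 CPM (SD, n = 15), and without neuron 27 it was 3615 ± 1666. The 14 proteasome core genes summed to between 2564 and 10815 CPM in soma and between 2629 and 5596 CPM in dendrites. No test was run on the CCT sum, since it is a score over the chosen genes.

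**Figure D1:**
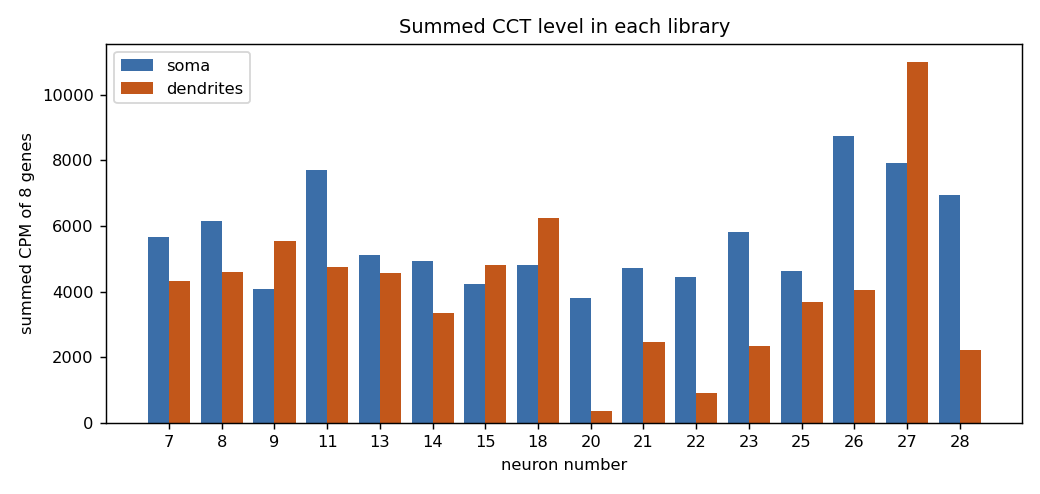
Bars give the summed CPM of the 8 CCT genes in the soma (blue) and dendrite (orange) library of each neuron. Soma values lie between 3799 and 8733 CPM, while dendrite values reach from 355 in neuron 20 to 10999.6 in neuron 27.

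Depth moved with this level in dendrites. Across the 16 dendrite libraries the summed CPM and the gene counts had a Spearman correlation of 0.77, and 0.75 without neurons 20 and 27; across the 16 soma libraries it was -0.21. The points share depth, since CPM is computed from the same gene counts. The 2 lowest dendrite values, 355 CPM in neuron 20 and 919 CPM in neuron 22, came from libraries of 4305333 and 1071293 gene counts. The shallowest dendrites, neuron 25 with 229149 gene counts, had 3696 CPM, and neuron 26 with 1155585 had 4035 CPM, both near the median. The part of depth in the lower dendrite level was not tested. CPM is a share of the RNA in a library, so a smaller share and a smaller amount of RNA per compartment cannot be told apart.

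The subunits known from yeast to bind ATP most strongly, which lie on 1 side of the ring, are the products of Tcp1, Cct2, Cct4 and Cct5. Cct4, the delta subunit, a mutation of which causes the sensory neuropathy of the mutilated foot rat, had 392 CPM in its lowest soma, that of neuron 18, a median of 1495 and 3843 in its highest, neuron 26. In dendrites it ran from 179 CPM in neuron 20 over a median of 945 to 8190 in neuron 27. It kept the narrowest range of the 8 genes in soma, 9.8-fold, and the single library of neuron 27, where it took 74.5% of all CCT counts, set its high in dendrites. Its log2 fold change, dendrites over soma, was -0.51 ± 0.40 (SE, n = 16 neurons), and the dendrites had the higher CPM in 5 of 16 neurons (edgeR's quasi-likelihood test, Benjamini-Hochberg adjusted p = 0.999).

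Cct2, the beta subunit, which has also been described in human cells as a receptor for the autophagy of protein aggregates, ran in soma from 48 CPM in neuron 21 over a median of 1085 to 3346 in neuron 11. In dendrites it ran from 27.1 CPM in neuron 22 over a median of 614 to 2044 in neuron 18. Neurons 15 and 21 differed in opposite directions. In neuron 15 the soma had 1444 CPM and the dendrites 27.4, a difference of 52.8-fold, while in neuron 21 the dendrites were the higher, with 590 against 48 CPM. The log2 fold change was -0.47 ± 0.58 (SE), with dendrites higher in 7 of 16 neurons (edgeR adjusted p = 0.999).

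Cct5, the epsilon subunit, in which a human mutation causes a hereditary sensory neuropathy, ran in soma from 6.43 CPM in neuron 28 over a median of 305 to 1796 in neuron 27. In dendrites it ran from 24.4 CPM in neuron 21 over a median of 132 to 1619 in neuron 15. The highest soma and its own dendrites stood far apart, with 1796 and 61.5 CPM in neuron 27. The log2 fold change was -0.55 ± 0.71 (SE), with dendrites higher in 6 of 16 neurons (edgeR adjusted p = 0.999).

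Tcp1, the alpha subunit, named after the mouse t-complex, was the subunit that fell below 10 counts most often. In soma it ran from 1.01 CPM in neuron 28, from 8 counts (95% exact binomial interval 0.435 to 1.99 CPM), over a median of 123 to 519 in neuron 21. In dendrites it had 0 counts in neuron 15, which with a limit of 3 counts at that depth allows up to 0.156 CPM, a median of 94.5 CPM and 324 in neuron 27. Extremes lay in both directions: the soma of neuron 15 had 56.5 CPM, so that its dendrites were at least 363-fold lower, while in neuron 28 the dendrites were 193-fold higher, with 195 CPM against 1.01. The log2 fold change was -0.88 ± 1.21 (SE), with dendrites higher in 6 of 16 neurons (edgeR adjusted p = 0.999). These intervals and limits cover counting error only, since amplified reads without molecular identifiers are not independent molecules.

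The other subunits, of the side that binds ATP weakly in yeast, are the products of Cct3, Cct6a, Cct7 and Cct8. Cct8, the theta subunit, swung most in soma, by 865-fold: it stood at 4.19 CPM in neuron 11 and 4.20 in neuron 18, against a median of 822 and a highest value of 3625 in neuron 28. In dendrites it ran from 8.36 CPM in neuron 20 over a median of 316 to 1069 in neuron 18. Soma and dendrites of 1 cell traded places at these extremes. The dendrites of neuron 18 were 255-fold above their soma, those of neuron 11 were 71.5-fold above theirs (300 against 4.19 CPM), and those of neuron 28 were 57.1-fold below theirs (63.5 against 3625 CPM). The log2 fold change of -1.23 ± 0.78 (SE) was the lowest of the 8 genes, with dendrites higher in 4 of 16 neurons (edgeR p = 0.125 unadjusted, adjusted p = 0.999).

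Cct7, the eta subunit, had the smallest SD of TMM-scaled log2 CPM of the 8 genes in both compartments. It ran in soma from 78.3 CPM in neuron 20 over a median of 552 to 1183 in neuron 25, and in dendrites from 16.5 CPM in neuron 20 over a median of 509 to 1076 in neuron 18. Its SD on that scale was 0.99 across soma libraries and 1.08 across dendrite libraries, and 3.46% and 2.62% of the tested genes had a smaller one. For Cct8 the SDs were 2.96 and 1.77, and 31.9% and 13.4% of tested genes had a smaller one. By unscaled CPM the range of Cct4 was narrower, 9.8-fold against 15.1-fold for Cct7 in soma and 45.7-fold against 65.2-fold in dendrites. The log2 fold change of Cct7, -0.24 ± 0.51 (SE), was nearest to 0 among the 8 genes, with dendrites higher in 4 of 16 neurons (edgeR adjusted p = 0.999).

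Cct3, the gamma subunit, ran in soma from 40.2 CPM in neuron 8 over a median of 383 to 1484 in neuron 18, and in dendrites from 3.73 CPM in neuron 22 over a median of 220 to 657 in neuron 15. The lowest value rests on 4 counts (95% exact binomial interval 1.02 to 9.56 CPM), against 424 CPM in the soma of that neuron. Its log2 fold change was -0.85 ± 0.79 (SE), with dendrites higher in 7 of 16 neurons (edgeR adjusted p = 0.999).

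Cct6a, the somatic form of the zeta subunit, ran in soma from 4.08 CPM in neuron 26 over a median of 137 to 854 in neuron 23, and in dendrites from 3.49 CPM in neuron 28 over a median of 89.8 to 940 in neuron 26. Its lowest soma and its highest dendrites thus belonged to 1 cell, neuron 26, where the dendrites were 230-fold higher. The dendrites of neurons 9 and 8 followed, with 904 and 601 CPM, and the next highest, neuron 25, had 292. The log2 fold change was -0.37 ± 0.79 (SE), with dendrites higher in 7 of 16 neurons (edgeR adjusted p = 0.999).

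**Figure D2:**
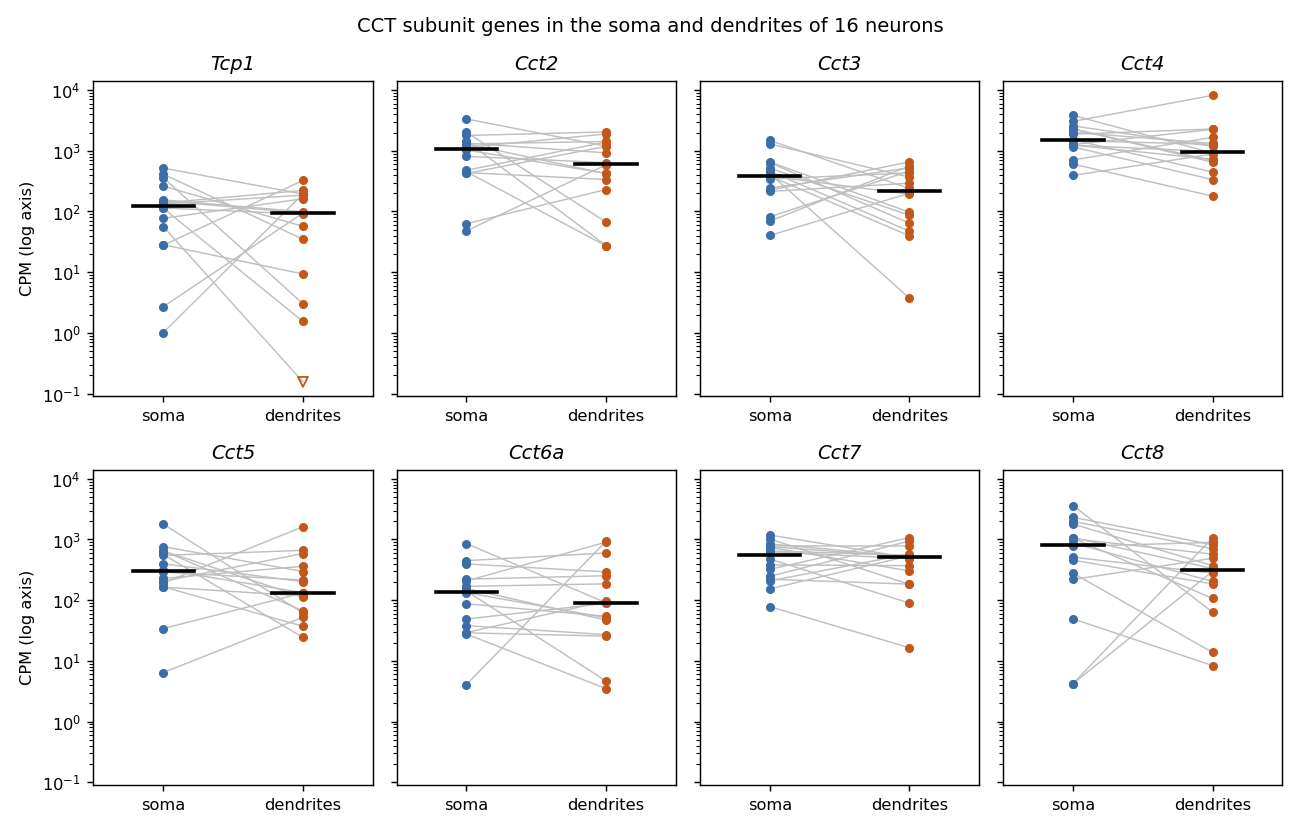
Each panel gives 1 CCT gene in CPM on a log axis, with a point per library, a grey line joining soma (blue) and dendrites (orange) of 1 neuron and a black bar at the median. The open triangle is Tcp1 in the dendrites of neuron 15, with 0 counts, drawn at its limit of 0.156 CPM; the groups overlap in every panel.

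The comparison of dendrites with soma asked whether any subunit differed in relative abundance between the compartments of a cell. None of the 8 genes passed: edgeR's quasi-likelihood test with the neuron as a block called 0 of 8 at an adjusted p of 0.05, and 0 of 8 had an unadjusted p under 0.05. Of all 4916 tested genes it called 0% and had 2.62% at an unadjusted p under 0.05. Limma-voom and an exact sign-flip permutation test per gene called 0 members and 0% of tested genes. DESeq2's Wald test called 0 members and 8.2% of tested genes, 2.64% being called lower in dendrites. The exact sign-flip test, two-sided over 16 neurons, gave unadjusted p from 0.167 for Cct4 to 0.876 for Cct6a, and adjusted p over all tested genes from 0.896 to 0.999.

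All 8 fold changes had a negative sign, from -1.23 to -0.24 in log2, with a median of -0.53. Over all tested genes the median was 0.127, and 45.2% had a negative value. All 8 lay below the median gene, 27.8% of tested genes lay lower still than the members' median, and the sign of 8 genes from the same libraries is not 8 independent observations. The dendrites were also the shallower library in 14 of 16 neurons. Across the 16 neurons, the median difference of the 8 genes had a Spearman correlation of 0.54 with the difference in log2 depth. For the median difference of all tested genes it was 0.14. That value is no background for the 8 genes, since TMM scaling acts on the middle of all genes, many of them at low counts. The median difference of all tested genes was 0 in neurons 20 and 27. The negative sign of all 8 was kept without neurons 7, 8 and 9, where the median was -0.75, and without neurons 20 and 25, where it was -0.37. With no replicate block 7 of 8 were negative, and with limma-voom 5 of 8, where Cct4, Cct6a and Cct7 stood above 0.

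**Figure D3:**
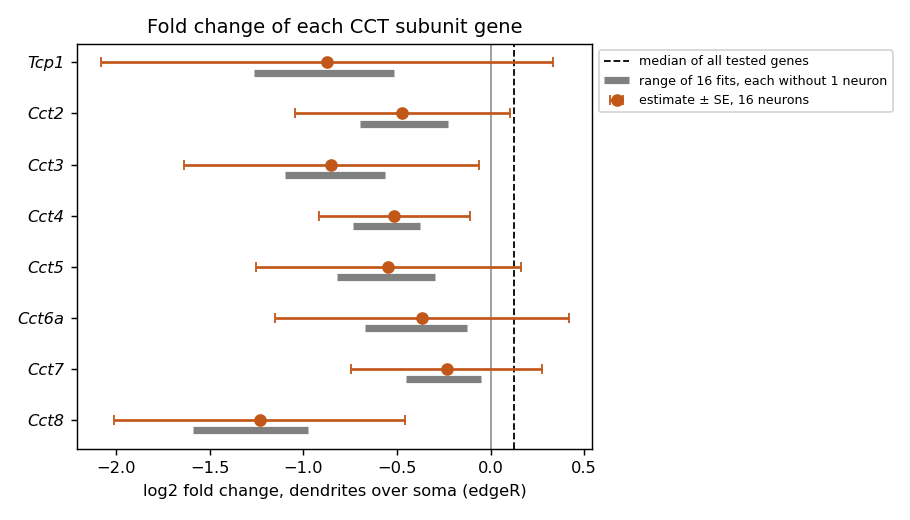
Points and bars give the log2 fold change of dendrites over soma ± SE for each CCT gene (edgeR, 16 neurons), grey bars the range over 16 fits that each leave out 1 neuron, and the dashed line the median of all tested genes, 0.127. All estimates lie between -1.23 and -0.24. No range without 1 neuron crosses 0, but these fits share most neurons and do not measure the error of an estimate. The SE bars of Tcp1, Cct2, Cct5, Cct6a and Cct7 cross 0, and those of Cct3, Cct4 and Cct8 do not.

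Single neurons rarely moved all subunits together. By CPM, all 8 were lower in dendrites in neurons 20 and 22, all 8 were higher in 0 neurons, and in 14 neurons some were higher and others lower. With TMM scaling 2 of 8 were higher in the dendrites of neuron 20, Cct4 and Cct5, and its median difference was -0.72 in log2, against -3.42 for the summed CPM. In neuron 22 the dendrites had between 3.73 CPM (Cct3) and 446 CPM (Cct4), and its soma between 28.3 (Tcp1) and 1519 (Cct4). In neuron 18, 6 of 8 subunits were higher in dendrites, and in neuron 14, 1 of 8 by CPM and 3 of 8 with TMM. Differences of at least 16-fold between soma and dendrites of 1 cell, on TMM-scaled log2 CPM, were seen in 15 of 128 combinations of subunit and neuron (11.7%), 10 with lower dendrites and 5 with higher. Over all tested genes 33.8% of combinations were that far apart, and that figure includes many genes at low counts. Tcp1 accounted for 5 of the 15, Cct8 for 4, and Cct4 and Cct7 for 0.

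Subunit balance was read from each gene's log2 CPM (with 1 added) relative to its own median over the 32 libraries, so that no level of 1 gene was set against that of another; transcript lengths were not used here. In a balanced library the 8 deviations would be alike. Their SD within a library averaged 1.63 ± 0.81 log2 units in soma and 1.41 ± 0.67 in dendrites (SD, n = 16 each). The most even libraries were the dendrites of neuron 7, with 0.51, and the soma of neuron 13, with 0.57. The least even were the dendrites of neuron 15, with 3.24, and the somata of neurons 11 and 28, with 3.13 and 3.03. The same measure over the 14 genes of the proteasome core, another complex built of many different subunits, averaged 1.51 ± 0.50 in soma and 1.86 ± 0.87 in dendrites (SD, n = 16 each), so the ranges of the complexes overlapped in both compartments.

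After centring each library on its median subunit, 18 of 256 combinations lay 8-fold or more off, 14 of them below and 4 above. No such count is given here for other genes, so whether 18 is many cannot be told. The 18 combinations fell in 13 libraries, 7 of soma and 6 of dendrites. The somata with a collapsed Cct8 were the clearest: in neuron 18 Cct8 stood at -6.95 log2 units from the middle subunit and in neuron 11 at -5.98, with Cct3 as the highest subunit of both. The soma of neuron 28 was the opposite, with Cct8 4.78 log2 units above the middle subunit, 52% of the library's CCT counts, and Tcp1 at -3.89. In the dendrites of neuron 15 Tcp1 was lowest and Cct5 highest, at 3.03 above, and Cct5 took 33.7% of CCT counts there against a median of 4.69% across dendrite libraries. Cct6a was 3.11 above the middle subunit in the dendrites of neuron 8, 2.92 in those of neuron 9 and 3.31 in those of neuron 26. Cct4 and Cct7 were 8-fold off in 0 of 32 libraries. The dendrites of neuron 20, with the lowest summed level, were not among the uneven ones, with an SD of 1.13: by CPM all 8 subunits were low there, with a median deviation of -3.88 log2 units. That library's TMM factor of 0.159 applies to its genes in general, and with TMM 2 of 8 subunits were higher there than in the soma.

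**Figure D4:**
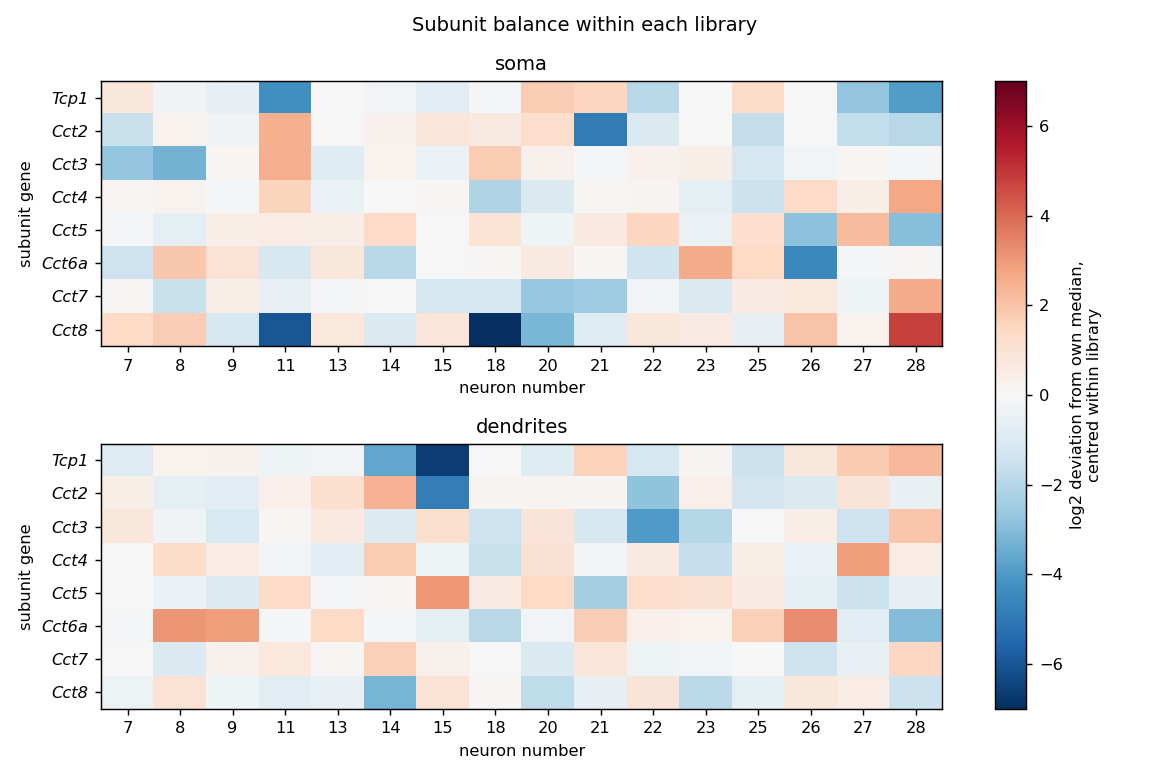
Colour gives the log2 deviation of each CCT gene from its own median over 32 libraries, centred on the middle subunit of each library, with soma above and dendrites below and 1 column per neuron. Cct8 is dark blue in the somata of neurons 11 (-5.98) and 18 (-6.95) and red in that of neuron 28 (4.78), while Cct4 and Cct7 stay within 8-fold throughout.

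The subunits showed little common rise and fall across somata, while across dendrites most pairs had a positive correlation. Across the 16 soma libraries, the 28 pairs of subunits had a median Spearman correlation of -0.09 in CPM. The median was 0.08 over all pairs of tested genes and 0.09 over the 91 pairs of proteasome core genes. Above 0 were 10 of 28 subunit pairs (35.7%), against 61.6% of all pairs. The subunit pairs ran from -0.64 for Cct3 with Cct8 to 0.49 for Tcp1 with Cct6a. Across the 16 dendrite libraries the median was 0.28, against 0.10 over all pairs and 0.11 over proteasome core pairs. There 27 of 28 subunit pairs (96.4%) were above 0, against 64.0% of all pairs. Without neurons 20 and 22, chosen for their low summed CCT level in dendrites, which by itself lowers such correlations, the dendrite median was 0.06, with 17 of 28 pairs above 0. With TMM scaling of all 16 it was 0.225, with 25 of 28 pairs above 0. The figures over all pairs given above are for CPM in all 16 libraries, and none is given for these alternatives. Libraries share depth, and no p is given for these values. A subunit's level in the soma said little of its level in the dendrites of the same cell, with Spearman correlations over 16 neurons from -0.50 for Cct3 to 0.40 for Cct6a, against a median of 0.08 over all tested genes.

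Among non-members, the genes with levels most like the summed CCT level were found by the mean of the Spearman correlations within soma and within dendrites, over 16 libraries each. Cltc, the clathrin heavy chain, came first with 0.56 (0.39 in soma, 0.73 in dendrites), followed by Smarca4, an ATPase of the BAF chromatin remodelling complex, with 0.55. Iars, the cytosolic isoleucine tRNA synthetase, had 0.52, Kcmf1, a ubiquitin ligase gene, 0.52, and Higd1a, a gene of the inner mitochondrial membrane, 0.50. Over 4908 genes the median was 0.00 and the 95th percentile 0.29. Each of these 5 values was higher in dendrites than in soma, where depth also moved with the summed level.

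The helpers of CCT did not pass the test either. Prefoldin, which hands unfolded actin and tubulin to CCT, had 4 of 6 listed subunits among the rows and 3 tested. Of these 2 were above 0 and 1 below in log2 fold change, with a median of 0.47 and 0 called. Pfdn1 stood at 0.63 ± 0.91 (SE, n = 16), Pfdn2 at 0.47 ± 0.87 and Pfdn5 at -0.91 ± 1.20. Of the 7 listed phosducin-like and related regulators, 6 were among the rows and 3 were tested, 1 above 0 and 2 below, with a median of -1.32 and 0 called. Txndc9, a thioredoxin-like protein that binds CCT, stood at -1.32 ± 1.39, with the dendrites higher in 5 of 16 neurons. Uri1 and Pdrg1, of the prefoldin-like complex, stood at -1.46 ± 1.81 and 0.17 ± 1.79. The tubulin cofactors, which take over tubulin folded by CCT, had 3 of 6 above 0 and 3 below, with a median of 0.43 and 0 called. Tbcb stood at -1.25 ± 0.97, Tbcc at 1.67 ± 1.94 and Tbcd at 1.34 ± 1.82.

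None of the listed substrates passed the test. Of 14 actin and tubulin genes, 13 had a log2 fold change above 0 and 1 below, with a median of 0.24 and 0 called, against a median of 0.127 and 54.8% above 0 over all tested genes. Tubb5, a widely expressed beta-tubulin, stood at 0.65 ± 0.36 (SE, n = 16), higher in dendrites in 12 of 16 neurons, Tubb4b at 0.53 ± 0.55, higher in 12, and the neuronal Tubb3 at 0.50 ± 0.48, higher in 13. Tubulin and actin genes have close copies, so their counts are uncertain where reads match several genes. The other listed substrates, mostly proteins with WD40 repeats, had 7 of 11 tested, 4 above 0 and 3 below, with a median of 0.11 and 0 called: Gnb1, a G-protein beta subunit, at 2.02 ± 1.48, Vhl, the ubiquitin ligase subunit, at 1.79 ± 1.67, and Strap, a WD40 protein, at -1.11 ± 1.47.

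The mitochondrial chaperonin, a distant relative built from copies of 1 subunit that folds imported proteins, had Hspd1 at -0.28 ± 0.68 and its cofactor Hspe1 at 0.53 ± 0.90 (SE, n = 16). Of the chaperonin-like genes of cilia, only Mkks was tested, at 0.91 ± 1.12, while Bbs10 reached 10 counts in 5 soma and 4 dendrite libraries. The 14 proteasome core genes, a complex of like summed level (median 5072 CPM in soma and 4124 in dendrites), had 10 below 0 and 4 above, with a median of -0.46 and 0 called. Psma3 stood at -2.84 ± 1.58, Psmb2 at -1.51 ± 0.88 and Psmb7 at -1.13 ± 0.76. Each gene of these lists had an edgeR adjusted p of 0.999 over all tested genes.

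Markers of other cell types were present beside these values. The 13 astrocyte markers among the rows summed to between 65.5 and 775 CPM in soma (median 303) and between 93.3 and 2782 CPM in dendrites (median 451). Of these genes 6 were tested, 4 above 0 and 2 below in log2 fold change, with a median of 1.19 and 0 called. Apoe, a lipid carrier gene, stood at 4.16 ± 1.55 (SE, n = 16; edgeR p = 0.0127 unadjusted, adjusted p = 0.999), higher in dendrites in 12 of 16 neurons. Mt3, a metallothionein gene, stood at 1.70 ± 1.19, higher in 12, and Aldoc, a glycolytic enzyme gene, at 1.47 ± 1.58, higher in 11. S100b, not tested, had a median of 0 CPM in soma and 33.4 CPM in dendrites, with 11 of 16 neurons higher in dendrites. Other defining markers were at 0 more often in soma than in dendrites. Gfap had 0 counts in 12 soma and 6 dendrite libraries, Slc1a3 in 10 and 6, and Aqp4 and Gja1 each in 13 and 8. Aldh1l1 had 0 counts in 15 and 14, and Slc1a2 in 16 and 15. The highest dendrite values were 123 CPM for Gfap, 436 for Slc1a3, 69.8 for Aqp4 and 287 for Gja1. Vascular markers summed to a median of 8.49 CPM in soma and 56.6 CPM in dendrites, with Cldn5 at 0 in all 32 libraries. Oligodendrocyte markers summed to medians of 47.6 and 57.1 CPM, of which Cspg5 alone had medians of 26.1 and 34.9. Progenitor markers summed to medians of 47.6 and 31.4 CPM, of which Pcna alone had medians of 43.8 and 27.8. Microglia markers summed to at most 0.126 CPM in soma and 27.9 CPM in dendrites. The part of such RNA in the CCT values was not tested.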

How the data were processed

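For each library the authors deposited unnormalized counts of 17216 genes, listed by symbol, and 92 ERCC spike-ins. The submitters' processing notes give rn6 as the build. How reads were aligned, assigned to strands or shared among genes is not given in the sources used here, so reads shared with pseudogenes or overlapping genes (in GRCr8, Usp16 overlaps Cct8, and Acat2l1 overlaps Tcp1) are uncertain. Spike-ins entered neither library sizes nor tests. CPM was computed per gene counts of a library.

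Genes passed filterByExpr by compartment (minimum count 10), leaving 4916 genes. Dendrites were tested against soma in R 4.3.3 with edgeR 4.0.16 (TMM, glmQLFit robust, glmQLFTest) and the neuron as a block, adjusted by Benjamini-Hochberg over all tested genes at 0.05; the SE was obtained from the fold change and its F statistic. The fits were run on simulated data with planted 16-fold changes and no differences between neurons. Smaller changes were not simulated, so this says nothing of how well they would be found. Paired values and the SDs across libraries of Cct7 and Cct8 use log2 CPM with TMM and a prior count of 2. The sign-flip test enumerates all sign patterns. Alternatives used DESeq2 1.42.0 and limma 3.58.1 (voom). Balance and correlations are descriptions without a test.

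The pairing rests on the labels: the series' design gives 1 soma and 1 dendrite library per cell, and the titles share a number. As a check, expression was centred by compartment and soma correlated with dendrites over tested genes: Spearman's rho averaged 0.0678 within cells and -0.00054 across cells, and exceeded 0.1 in 4 of 16 cells. The check for duplicate libraries, a chi-square test of each pair of libraries of a compartment, gave 61 or more per degree of freedom. It says nothing of what separates the cells.

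The rule for members uses symbols alone, but this gene family, the lists and the alternatives were chosen with earlier results of these data known. Named genes were all 8 members, of each list the up to 3 tested members with the smallest unadjusted p, and the 5 genes most like the summed CCT level; low or extreme libraries, the marker genes and the genes not tested were singled out after their values were seen. Of the listed genes and markers, Vbp1, Pfdn4, Pdcl2, Bbs12, Emx1, Dlx6 and Sox9 had no row under these symbols and were not analysed here.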

Additional observations from a re-analysis of the deposited data

Results flagged for a closer look

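ERCC spike-ins, synthetic RNAs added to the samples, enter no comparison here and are given as a signal outside the gene measurements. They had counts in each of the 32 libraries. Their share of counts was lowest for soma 8, at 0.0605% (95% exact binomial interval 0.0592% to 0.0618%), which is above the limit a count of 0 allows there; the median library had 0.482%.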

How the results depend on the processing

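Leaving out 1 neuron at a time, edgeR called 0 genes and 0 members, and the members' median log2 fold change ran from -0.746 without neuron 26 to -0.386 without neuron 22. Without the replicate block (the neuron as pair) 0 genes were called, the members' median was -0.52, and Cct6a turned to 0.20. With limma-voom Cct4 turned to 0.27, Cct6a to 0.11 and Cct7 to 0.18. The count of genes called was 1 with no filter on low counts and 403 with DESeq2's Wald test, none of them a member in the latter; the cause of these changes was not tested. The dendrite median over subunit pairs moved from 0.28 to 0.06 without neurons 20 and 22, an alternative chosen after seeing the data. Counts limit the precision most where a subunit had fewer than 10. Tcp1 had 0 counts in the dendrites of neuron 15, 8 in those of neuron 25 and 8 in the soma of neuron 28. Cct3 had 4 in the dendrites of neuron 22, and Cct6a had 5 in those of neuron 28. The lowest subunit in the dendrites of neuron 20, Tcp1, had 13.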
